A study of Mus musculus with 70 samples.

Results

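The genes described here make cholesterol and fatty acids, or control, convert or export their products. They were chosen by symbol, from known function and with earlier results of these data known. All 29 were found among the 24420 genes of the count table. By role they are 6 genes of the mevalonate pathway, 10 of the steps that lead by way of squalene to cholesterol, 6 of fatty acid synthesis, 3 regulators and 4 of sterol transport, oxysterol synthesis and sterol export. They were followed in the lungs of 70 male mice of the line that the growth protocol names 129S-Slc26a4tm1Erg/AjgJ. The strain tag of the labels spells it 129S-Slc26Atm1Egr/AjgJ. All were about 3 months old at exposure and were the homozygous knockout (KO) or homozygous wildtype (WT) progeny of heterozygous breeders. The mice breathed crystalline silica (Min-U-Sil5) at 15 mg/m3 in a whole-body chamber for 6 hours a day on 4 days, or air, and a piece of lung was taken 1 day, 3 months or 9 months after exposure. There were 12 groups: KO silica, WT silica, KO air and WT air at each time. Of those groups 10 held 6 mice, while the WT silica and WT air groups at 9 months held 5 each. The KO allele is carried in the germline, by the whole animal and not by the lung alone, and total RNA came from whole tissue rather than from sorted cells.

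Cholesterol is built from acetyl-CoA through mevalonate, isoprenoids and squalene, and fatty acids are built from the same precursor by acetyl-CoA carboxylase and fatty acid synthase before desaturases add double bonds. Transcription of most of these genes is driven by the SREBP factors, which INSIG proteins hold back when sterols are plentiful, while oxysterols activate LXR receptors and with them the cholesterol exporters. In the lung, alveolar type 2 cells make lipid for surfactant and alveolar macrophages take it up and export its cholesterol.

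The libraries held between 802478 and 5596316 counts (median 2183480), of which the 29 genes took 0.449% to 0.958% (median 0.569%). All 29 passed the low-count filter in every comparison. Slc26a4 itself, given as normalised CPM (each library's counts scaled to a common total), had medians of 13.8 CPM in KO silica mice, 50.2 CPM in WT silica mice, 1.57 CPM in KO air mice and 8.19 CPM in WT air mice at 1 day, and the KO median lay below the WT median of the same exposure and time throughout. Reads of Slc26a4 were still counted in KO lungs and rose with silica there, by 2.88 on the log2 scale at 1 day (standard error 0.45, adjusted p = 8.00e-05 by edgeR) and by 2.66 at 3 months (standard error 0.40, adjusted p = 4.47e-05). The KO air library of replicate 4 at 9 months was high for a KO library, at 51.5 CPM of Slc26a4, where its group's median was 3.32 CPM. The highest WT air library of 9 months stood apart as well, at 73.9 CPM where its group's median was 16.8 CPM. Whether a label is wrong was not tested. KO air replicate 4 at 9 months, KO silica replicate 3 at 1 day and WT air replicate 5 at 9 months differed most from their group mates. Their median chi-square per degree of freedom was 10.1, 13.4 and 9.78 in that order, against 1.78 to 8.45 in the other 67 libraries. The air libraries KO replicates 4 and 5 and WT replicate 5 of 9 months, 3 in all, were also high in Chil3. This gene is counted below among the resident alveolar macrophage markers. Its levels there were 6668, 3140 and 7864 CPM before scaling, where the other 8 held 654 to 1112 CPM. WT air replicate 4 at 3 months carried fat-cell genes, with a sum over the 10 fat-cell markers of 208.6 CPM, and KO silica replicate 3 at 3 months had the highest Scd1 of any mouse. The lung markers Sftpc, Ager, Scgb1a1 and Cldn5 were present in all libraries, with sums of at least 9399 CPM. Values without these libraries are given beside several of the results within a time. The comparisons between times were refitted without the 9-month ones only.

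Silica moved a minority of the genes, and it moved different steps in different directions. Ch25h, the oxysterol-making enzyme, rose in both genotypes at 1 day and 3 months, and the desaturases Scd1 and Scd2, acetyl-CoA carboxylase Acaca and the exporter Abca1 fell in KO lungs at 1 day. The WT values of these last 4 genes at 1 day were negative too, without passing the test. Within sterol synthesis the epoxidase Sqle rose in WT lungs while Pmvk fell. None of the 29 genes passed a test of the difference between the silica effects in KO and WT lungs. By edgeR's quasi-likelihood test at an adjusted p under 0.05, 5 of the 29 genes changed with silica in KO lungs at 1 day (17.2%, where 1.93% of all tested genes did), and 3 of 29 in WT lungs (10.3%, against 2.37%). At 3 months 2 of 29 changed in KO lungs (6.90%, against 4.8% of all tested genes) and 3 of 29 in WT lungs (10.3%, against 2.96%). At 9 months 1 of 29 changed in KO lungs (3.45%, against 0.179%). In WT lungs at 9 months 0 of 29 did, against 0.0234% of all tested genes, with 2 members (6.82% of all genes) at an unadjusted p under 0.05 and 0 called by DESeq2. With the silica effect averaged over both genotypes, the counts were 7 of 29 at 1 day (24.1%, against 4.59%), 4 of 29 at 3 months (13.8%, against 7.95%) and 1 of 29 at 9 months (3.45%, against 0.242%). The median log2 fold change of the 29 genes stayed close to that of all genes, at -0.07 against 0.00 at 1 day, 0.02 against -0.01 at 3 months and -0.08 against 0.00 at 9 months. In whole lung, fewer cells of a type and less RNA per cell cannot be told apart.

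**Figure D1:**
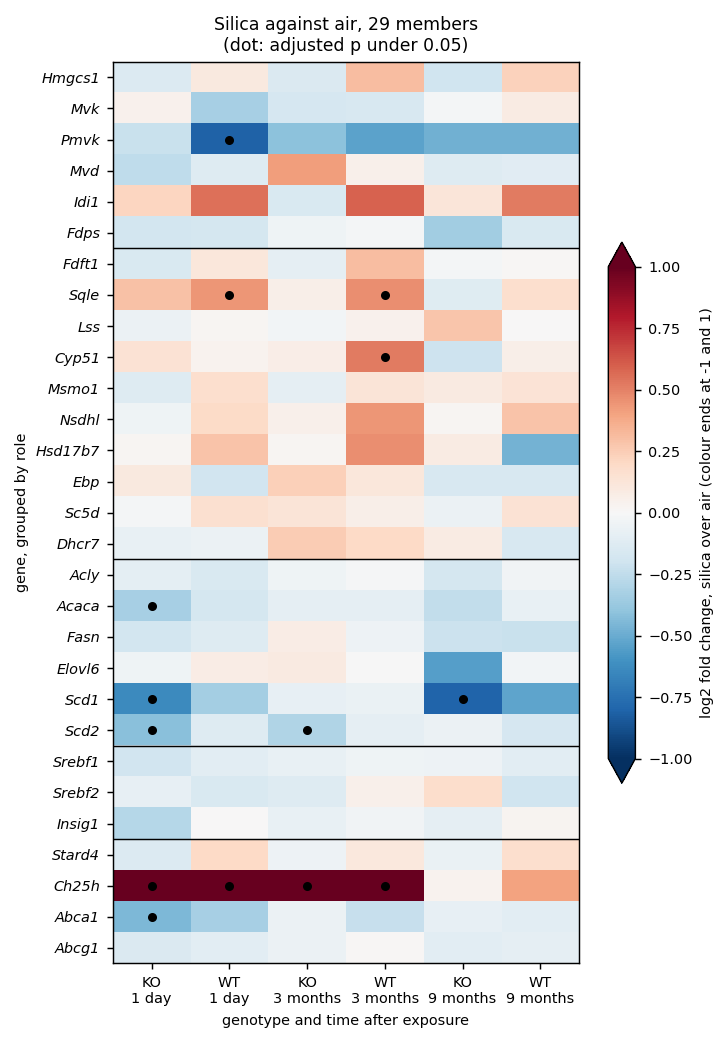
Log2 fold changes of silica over air for the 29 genes (down the page, by role) in KO and WT lungs at each time (across, early to late). Colour runs from -1 to 1 and dots mark adjusted p under 0.05. Ch25h stands out in both genotypes at 1 day and 3 months, and the other dots sit in Pmvk, Sqle and Cyp51 of sterol synthesis, in Acaca, Scd1 and Scd2 of fatty acid synthesis, and in Abca1.

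The first steps of sterol synthesis join and reduce small carbon units to mevalonate. Hmgcs1, the HMG-CoA synthase of the cytosol (chromosome 13 at 119690351 to 119708260 of GRCm38.p6, plus strand), is a classical SREBP target, and Cyp51, the lanosterol demethylase (chromosome 5 at 4080674 to 4104697, minus strand), is a target further down. The sequences just upstream of both genes are shown because they carry motifs known from sterol-controlled promoters, and that of Ch25h (chromosome 19 at 34473783 to 34475148, minus strand), the gene that silica raised most, is shown beside them. Each holds the 250 bases before the gene's RefSeq start, on the gene's strand of GRCm38.p6, at chr13:119690101-119690350, chr5:4104698-4104947 and chr19:34475149-34475398. Capitals mark CCAAT, the box bound by NF-Y, in either orientation (ATTGG on the other strand), and TCACNCCAC, a form of the sterol regulatory element.
Hmgcs1: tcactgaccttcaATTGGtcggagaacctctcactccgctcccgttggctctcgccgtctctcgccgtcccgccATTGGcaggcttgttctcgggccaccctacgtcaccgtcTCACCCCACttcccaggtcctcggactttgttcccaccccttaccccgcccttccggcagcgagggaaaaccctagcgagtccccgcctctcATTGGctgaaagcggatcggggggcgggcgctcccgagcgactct
Cyp51: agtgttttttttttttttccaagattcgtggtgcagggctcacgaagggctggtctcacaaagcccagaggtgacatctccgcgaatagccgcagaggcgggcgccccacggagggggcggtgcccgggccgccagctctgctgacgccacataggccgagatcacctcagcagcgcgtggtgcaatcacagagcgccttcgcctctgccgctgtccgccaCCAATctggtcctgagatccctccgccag
Ch25h: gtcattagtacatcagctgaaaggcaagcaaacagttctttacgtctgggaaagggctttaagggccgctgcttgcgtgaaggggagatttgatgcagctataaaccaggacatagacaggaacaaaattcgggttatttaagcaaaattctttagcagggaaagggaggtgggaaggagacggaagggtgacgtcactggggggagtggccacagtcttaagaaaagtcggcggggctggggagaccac

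The Hmgcs1 window held 3 CCAAT boxes, which begin 237, 176 and 45 bases before the start, and 1 TCACNCCAC match 137 bases before it. The Cyp51 window held 1 CCAAT box 29 bases before the start, and the Ch25h window held neither motif. RefSeq windows of this kind matched 22 of the 29 genes by symbol. A CCAAT box on either strand was found in 13 of the 13 sterol synthesis genes with a window, in 1 of 4 fatty acid synthesis genes (Fasn) and in 3 of 5 of the others (Srebf1, Srebf2 and Insig1), where 37.5% of the 27025 genes with a window held one. TCACNCCAC was found in 1.22% of genes and among the 29 only in Hmgcs1. No match in the printed windows overlaps another, and a match is a description of the letters in the window.

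Among the 6 mevalonate genes, Pmvk, the phosphomevalonate kinase (chromosome 3 at 89454541 to 89469014, plus strand), was the member that changed. At 1 day it had 11.4, 14.3 and 15.9 CPM (lowest, median and highest of 6 mice) in WT silica lungs, against 23.5, 24.2 and 25.7 CPM in WT air lungs. The groups did not overlap, and every WT silica mouse lay below every WT air mouse. In KO lungs it had 6.62, 15.1 and 27.5 CPM after silica, against 13.5, 16.0 and 29.1 CPM in air, and these groups overlapped widely. Its log2 fold change of silica over air was -0.81 in WT lungs (standard error 0.20, adjusted p = 0.0152) and -0.22 in KO lungs (standard error 0.22, adjusted p = 0.790). At 3 months it had 11.3, 16.3 and 23.9 CPM in WT silica lungs, against 22.1, 25.8 and 29.1 CPM in WT air lungs. KO lungs of 3 months held 11.8, 16.4 and 25.8 CPM after silica, against 17.1, 20.4 and 33.9 CPM in air. The silica medians were the lower ones in both genotypes, with overlap in each. Averaged over genotypes Pmvk fell by 0.52 on the log2 scale at 1 day (standard error 0.15, adjusted p = 0.0339) and by 0.47 at 3 months (standard error 0.13, adjusted p = 0.0178). The value at 9 months was -0.48 (standard error 0.13), with an adjusted p of 0.139. The WT call at 1 day was lost without WT silica replicate 4 (adjusted p = 0.0616). The averaged call at 1 day was lost without any 1 of 7 libraries (WT silica replicates 3 and 4, WT air replicate 2, KO silica replicates 1, 2 and 3, and KO air replicate 4), with adjusted p up to 0.0860. Without KO silica replicate 3, which stood apart, the value was -0.46 (adjusted p = 0.0536). The other 5 mevalonate genes, Hmgcs1, the mevalonate kinase Mvk, the decarboxylase Mvd, the isomerase Idi1 and the farnesyl diphosphate synthase Fdps, did not pass the test with silica in either genotype. Idi1 was the one with the largest positive values in WT lungs, at 0.55, 0.59 and 0.52 on the log2 scale from 1 day to 9 months (adjusted p = 0.134, 0.172 and 0.775).

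Past the farnesyl stage 2 genes, Sqle and Cyp51, rose with silica in WT lungs. Sqle, the squalene epoxidase that catalyses a rate-limiting oxygenation (chromosome 15 at 59315092 to 59331193, plus strand), had 38.4, 49.8 and 52.6 CPM in WT silica lungs at 1 day, against 32.6, 34.6 and 38.7 CPM in WT air lungs. In KO lungs at 1 day it had 40.4, 44.6 and 51.5 CPM after silica, against 28.9, 37.3 and 46.5 CPM in air. WT silica mice overlapped WT air mice only at their edges, and KO silica mice overlapped KO air mice more. In WT lungs at 1 day the log2 fold change of Sqle was 0.44 (standard error 0.10, adjusted p = 0.00520), and its value in KO lungs was 0.29 (standard error 0.10, adjusted p = 0.193). At 3 months Sqle had 41.6, 45.7 and 54.3 CPM in WT silica lungs, against 27.1, 34.4 and 41.3 CPM in WT air lungs. KO lungs at 3 months held 38.7, 45.5 and 51.4 CPM after silica, against 29.7, 44.7 and 53.0 CPM in air. The WT groups did not overlap, while the KO silica mice lay inside the range of the KO air mice. The log2 fold changes were 0.46 in WT lungs (standard error 0.11, adjusted p = 0.0138) and 0.06 in KO lungs (standard error 0.11, adjusted p = 0.850). Averaged over genotypes Sqle rose by 0.37 at 1 day (standard error 0.07, adjusted p = 0.00065) and by 0.26 at 3 months (standard error 0.08, adjusted p = 0.0369). The WT call at 3 months was lost without WT silica replicate 1 (adjusted p = 0.0586). The averaged call at 3 months was lost without any 1 of 10 of the 24 libraries (replicates 1 and 2 of WT silica, 2, 4 and 5 of WT air, 4 and 5 of KO silica, and 4, 5 and 6 of KO air), with adjusted p up to 0.0724. Among these is WT air replicate 4, which carried fat-cell genes.

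Cyp51 had 26.8, 30.8 and 41.7 CPM in WT silica lungs at 3 months, against 18.1, 24.7 and 28.5 CPM in WT air lungs. In KO lungs it had 29.3, 34.2 and 41.1 CPM after silica, against 22.3, 33.8 and 41.5 CPM in air. The WT air mice were the low group of the 4, with a small overlap with WT silica mice. The log2 fold change of Cyp51 in WT lungs was 0.52 (standard error 0.14, adjusted p = 0.0359), and its value in KO lungs was 0.06 (standard error 0.14, adjusted p = 0.877). The call was lost without any 1 of 5 libraries, WT silica replicates 1 and 2 and WT air replicates 1, 4 and 5, with adjusted p up to 0.126. Without WT air replicate 4, which carried fat-cell genes, the value was 0.51 (adjusted p = 0.0685). Cyp51 shares exon sequence with Akap9 on the opposite strand, and since the strand setting of the counting is not stated, reads of the pair cannot be told apart.

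The other genes of the later steps were Fdft1 (squalene synthase), Lss (which closes the rings of lanosterol), Msmo1 and Nsdhl (which act in removing methyl groups), Hsd17b7 (a sterol ketone reductase), Ebp (an isomerase), Sc5d (a desaturase) and Dhcr7 (the last reductase to cholesterol). None of these 8 passed the test with silica within a genotype. In WT lungs at 3 months all 10 genes from squalene to cholesterol had positive log2 fold changes (median 0.25, where the median of all genes was -0.01), 2 of them called. The sterol synthesis genes can vary together between mice: WT silica replicate 2 lay above its group's median in 15 of the 16. Counts of these genes are therefore not counts of independent results. Of all 16 sterol synthesis genes, 13 were positive and 8 (50%, against 13.5% of all genes) had an unadjusted p under 0.05, among them Fdft1 at 0.31 (adjusted p = 0.0956), Nsdhl at 0.44 (adjusted p = 0.137) and Hmgcs1 at 0.31 (adjusted p = 0.0891). In KO lungs at 3 months 8 of 16 were positive, the median was -0.01 (all genes 0.00) and 0 were called, with 1 at an unadjusted p under 0.05 (17.1% of all genes) and 0 called by DESeq2. The summed CPM of the 16 genes had a lowest, median and highest value of 482, 517 and 528 in KO silica mice, 456, 474 and 583 in WT silica mice, 445, 517 and 603 in KO air mice, and 399, 418 and 490 in WT air mice. The WT air mice thus had the lowest median sum, and the ranges of all the groups overlapped. They had the lowest median sum at 9 months too, at 453 CPM, where the lowest mouse of the other groups held 475 CPM. At 1 day the WT air median was not the lowest.

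**Figure D2:**
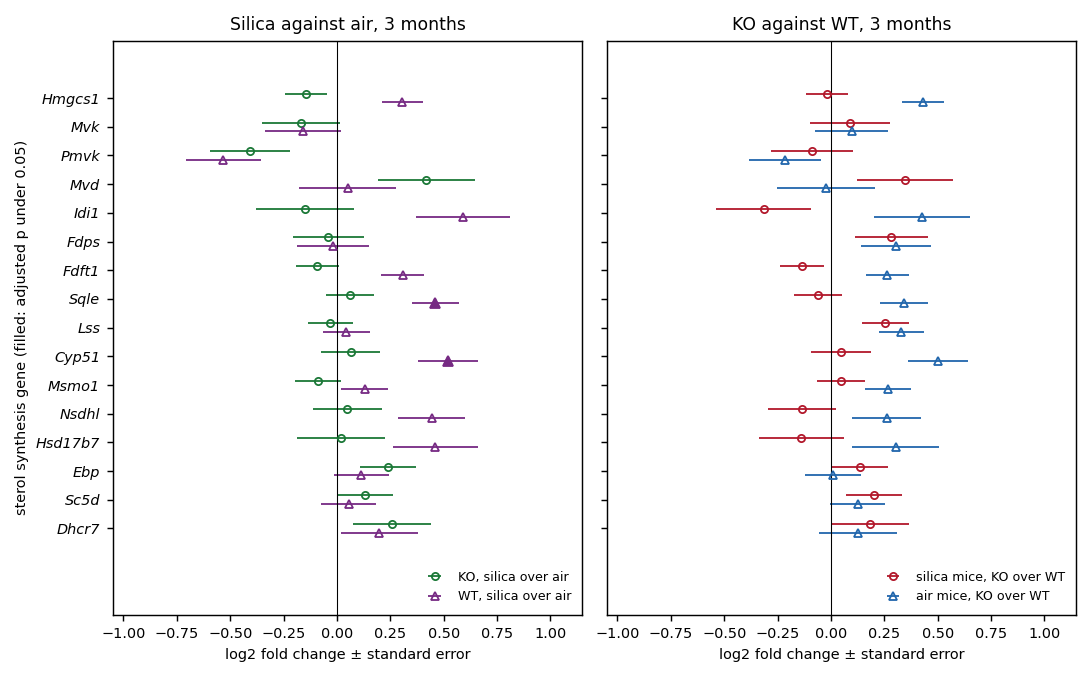
Log2 fold changes (points, with standard errors as bars) of the 16 sterol synthesis genes at 3 months, for silica over air in KO and WT lungs on the left and for KO over WT in silica and air mice on the right. Filled points passed an adjusted p under 0.05. The WT points for silica and the air points for genotype lie mostly right of 0, both being set against the same WT air mice, while the KO and silica-mouse points scatter about 0.

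Of the fatty acid synthesis genes 3 fell with silica in KO lungs at 1 day. Scd1, the main stearoyl-CoA desaturase (chromosome 19 at 44394450 to 44407709, minus strand), had 1488, 1824 and 2505 CPM in KO silica lungs at 1 day, against 2272, 3140 and 3676 CPM in KO air lungs. WT lungs held 1629, 2610 and 2821 CPM after silica, against 2037, 3078 and 3583 CPM in air. The silica medians were lower in both genotypes, with overlap in both. Scd1 fell by 0.63 on the log2 scale in KO lungs (standard error 0.14, adjusted p = 0.00535), and the WT value was -0.34 (standard error 0.14, adjusted p = 0.233). Averaged over genotypes it fell by 0.49 (standard error 0.10, adjusted p = 0.000997).

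Scd2, a second desaturase on the same chromosome (44293676 to 44306864, plus strand), had 623, 696 and 780 CPM in KO silica lungs at 1 day, against 792, 949 and 989 CPM in KO air lungs. WT lungs held 818, 865 and 904 CPM after silica, against 908, 944 and 984 CPM in air. In each genotype every silica mouse lay below every air mouse. The log2 fold change was -0.42 in KO lungs (standard error 0.06, adjusted p = 4.22e-05) and -0.13 in WT lungs (standard error 0.06, adjusted p = 0.363). At 3 months Scd2 had 715, 748 and 834 CPM in KO silica lungs, against 820, 950 and 1050 CPM in KO air lungs. In WT lungs it had 708, 862 and 935 CPM after silica, against 809, 886 and 982 CPM in air. The KO groups overlapped slightly, and the WT groups overlapped widely. Scd2 fell by 0.30 in KO lungs at 3 months (standard error 0.07, adjusted p = 0.00800), and the WT value was -0.09 (standard error 0.07, adjusted p = 0.654). Averaged over genotypes it fell by 0.27 at 1 day (standard error 0.04, adjusted p = 5.70e-05) and by 0.19 at 3 months (standard error 0.05, adjusted p = 0.00953).

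Acaca, which carboxylates acetyl-CoA in the committed step (chromosome 11 at 84129635 to 84401651, plus strand), had 105, 115 and 138 CPM in KO silica lungs at 1 day, against 132, 150 and 158 CPM in KO air lungs. WT lungs held 105, 125 and 145 CPM after silica, against 124, 142 and 155 CPM in air. Both pairs of groups overlapped, with the silica median lower in each. Acaca fell by 0.33 in KO lungs (standard error 0.08, adjusted p = 0.0168) and by 0.25 averaged over genotypes (standard error 0.06, adjusted p = 0.00346), and the WT value was -0.17 (standard error 0.08, adjusted p = 0.308). The KO call was lost without KO silica replicate 1 or 5 or KO air replicate 2, with adjusted p up to 0.0518. The other 3 genes, the ATP citrate lyase Acly, the fatty acid synthase Fasn and the elongase Elovl6, did not pass the test with silica. As a group the 6 genes had 3 lower calls and a median of -0.26 in KO lungs at 1 day (all genes 0.00), and in WT lungs a median of -0.14 (all genes 0.00), with 0 calls by edgeR, 4 at an unadjusted p under 0.05 (13.6% of all genes) and 0 calls by DESeq2. Without KO silica replicate 3, which stood apart at 1 day, the same 5 genes were called in KO lungs.

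At 9 months Scd1 was the member that silica changed. It had 1797, 2045 and 2466 CPM in KO silica lungs, against 2744, 3417 and 4533 CPM in KO air lungs. The WT silica lungs held 1811, 2127, 2246, 2459 and 2803 CPM, against 2121, 2810, 2968, 3741 and 4893 CPM in the WT air lungs. The KO groups did not overlap, and the WT groups did. Scd1 fell by 0.80 in KO lungs (standard error 0.16, adjusted p = 0.0303) and by 0.66 averaged over genotypes (standard error 0.12, adjusted p = 0.00957), and the WT value was -0.53 (standard error 0.17, adjusted p = 0.507). Without KO air replicate 4, whose Slc26a4 was high for a KO library, the KO value was -0.73 (adjusted p = 0.0272). Without all 3 high-Chil3 air libraries it was -0.77 (adjusted p = 0.000428). The KO call was lost without any 1 of KO silica replicates 4, 5 and 6 and KO air replicates 2 and 6, with adjusted p up to 0.105. All 6 fatty acid synthesis genes had negative values averaged over genotypes (median -0.19, all genes 0.00), 1 of them called. At 3 months Scd1 had 1616, 1886 and 5394 CPM in KO silica lungs, against 2066, 2337 and 3737 CPM in KO air lungs, and 1669, 1951 and 3170 CPM in WT silica lungs, against 1558, 2165 and 3078 CPM in WT air lungs. The highest KO silica mouse was replicate 3. The log2 fold changes were -0.08 in KO lungs and -0.07 in WT lungs (adjusted p = 0.910 and 0.963). Without KO silica replicate 3 the KO value of Scd1 was -0.49 (standard error 0.15, adjusted p = 0.0527), and without WT silica replicate 3 the WT value was -0.22 (standard error 0.22, adjusted p = 0.760).

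**Figure D3:**
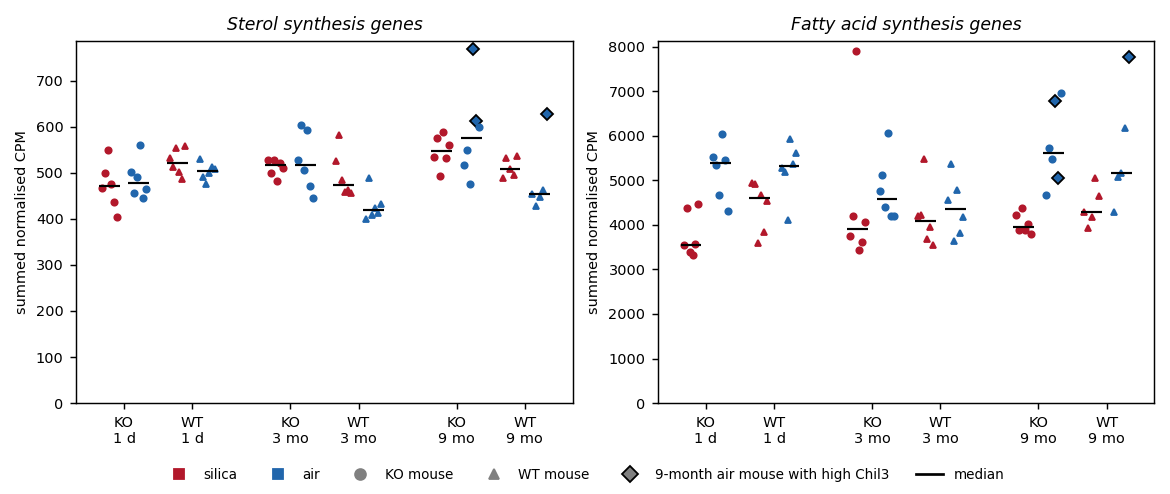
Summed normalised CPM of the 16 sterol synthesis genes and of the 6 fatty acid synthesis genes in each mouse, by genotype, exposure and time, with bars at the medians and diamonds for the 3 air mice of 9 months with high Chil3. At 3 and 9 months the WT air mice have the lowest median sterol sum (418 and 453 CPM), and at 1 day they do not. The highest sterol sum of all is that of KO air replicate 4 at 9 months (768 CPM).

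The regulators did not pass the test in any comparison of exposure, genotype or time. Srebf1 (chromosome 11 at 60199084 to 60224186, minus strand), whose main product drives fatty acid genes, had 69.0, 126 and 131 CPM in KO silica lungs at 1 day and 101, 120 and 145 CPM in WT silica lungs, against 87.7, 139 and 143 CPM in KO air lungs and 115, 133 and 137 CPM in WT air lungs. Srebf2 (chromosome 15 at 82147269 to 82205379, plus strand), whose product drives sterol genes, had 67.4, 118 and 126 CPM in KO silica lungs and 110, 125 and 132 CPM in WT silica lungs at 1 day, against 98.8, 120 and 132 CPM in KO air lungs and 126, 140 and 145 CPM in WT air lungs. Insig1 (chromosome 5 at 28071412 to 28078662, plus strand), which retains the SREBP complex in the endoplasmic reticulum, had 50.0, 54.6 and 64.2 CPM in KO silica lungs and 60.0, 66.9 and 72.9 CPM in WT silica lungs, against 58.1, 64.6 and 83.3 CPM in KO air lungs and 60.8, 66.1 and 70.4 CPM in WT air lungs. All silica and air groups of these 3 genes overlapped at 1 day. Averaged over genotypes the silica log2 fold changes, from the earliest time to the latest, were -0.15, -0.06 and -0.08 for Srebf1, -0.12, -0.04 and -0.01 for Srebf2, and -0.14, -0.05 and -0.03 for Insig1, with adjusted p between 0.240 and 0.977. Srebf2 in WT lungs at 9 months was the exception to the overlap, with every silica mouse below every air mouse (log2 fold change -0.20, adjusted p = 0.736). Srebf1 shares exon sequence with Rai1 on the opposite strand.

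Ch25h, cholesterol 25-hydroxylase, makes an oxysterol that holds back SREBP and activates LXR, and is known as an interferon-inducible gene of macrophages. It was counted thinly, with 0 to 82 counts a library (median 16). At 1 day it had 5.99, 8.30 and 11.2 CPM in KO silica lungs, against 0, 2.18 and 4.43 CPM in KO air lungs. Its levels in WT lungs were 7.09, 8.38 and 11.0 CPM after silica, against 2.32, 3.19 and 6.44 CPM in air. Every silica mouse lay above every air mouse of its genotype. The KO air mice without a count were replicates 2 and 3, whose depth allows up to 1.11 and 3.74 CPM by counting error. The log2 fold change was 2.03 in KO lungs (standard error 0.36, adjusted p = 0.000512) and 1.39 in WT lungs (standard error 0.29, adjusted p = 0.00329). At 3 months Ch25h had 8.50, 14.4 and 14.9 CPM in KO silica lungs, against 1.06, 2.08 and 3.08 CPM in KO air lungs. WT lungs at 3 months held 9.25, 13.2 and 18.1 CPM after silica, against 0.949, 2.98 and 5.00 CPM in air. Again no silica mouse overlapped an air mouse of its genotype. It rose by 2.55 in KO lungs (standard error 0.28, adjusted p = 1.65e-07) and by 2.20 in WT lungs (standard error 0.24, adjusted p = 1.86e-07). Averaged over genotypes the increases were 1.71 at 1 day (standard error 0.23, adjusted p = 2.60e-06) and 2.37 at 3 months (standard error 0.18, adjusted p = 3.59e-11). Ch25h is a gene of 1 exon whose nearest coding neighbour, Lipa, lies 17154 bases away, and a noncoding transcript, Gm26902, overlaps its exon on the opposite strand.

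Abca1, which loads cholesterol onto lipid-poor lipoproteins (chromosome 4 at 53030789 to 53159988, minus strand), is a classical LXR target and went down. At 1 day it had 219, 241 and 351 CPM in KO silica lungs, against 289, 348 and 421 CPM in KO air lungs. WT lungs held 219, 260 and 327 CPM after silica, against 322, 331 and 342 CPM in air. Most silica mice lay below the air mice, and 1 high KO silica mouse and 1 high WT silica mouse made the groups overlap. Abca1 fell by 0.45 in KO lungs (standard error 0.10, adjusted p = 0.00714) and by 0.39 averaged over genotypes (standard error 0.07, adjusted p = 0.000250), and the WT value was -0.33 (standard error 0.10, adjusted p = 0.0716). At 3 months the value averaged over genotypes was -0.14 (standard error 0.05, adjusted p = 0.0902), and without KO silica replicate 3 Abca1 was called there too. Abcg1, the exporter to mature lipoproteins, and Stard4, which carries cholesterol between membranes, did not pass the test with silica at any time.

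**Figure D4:**
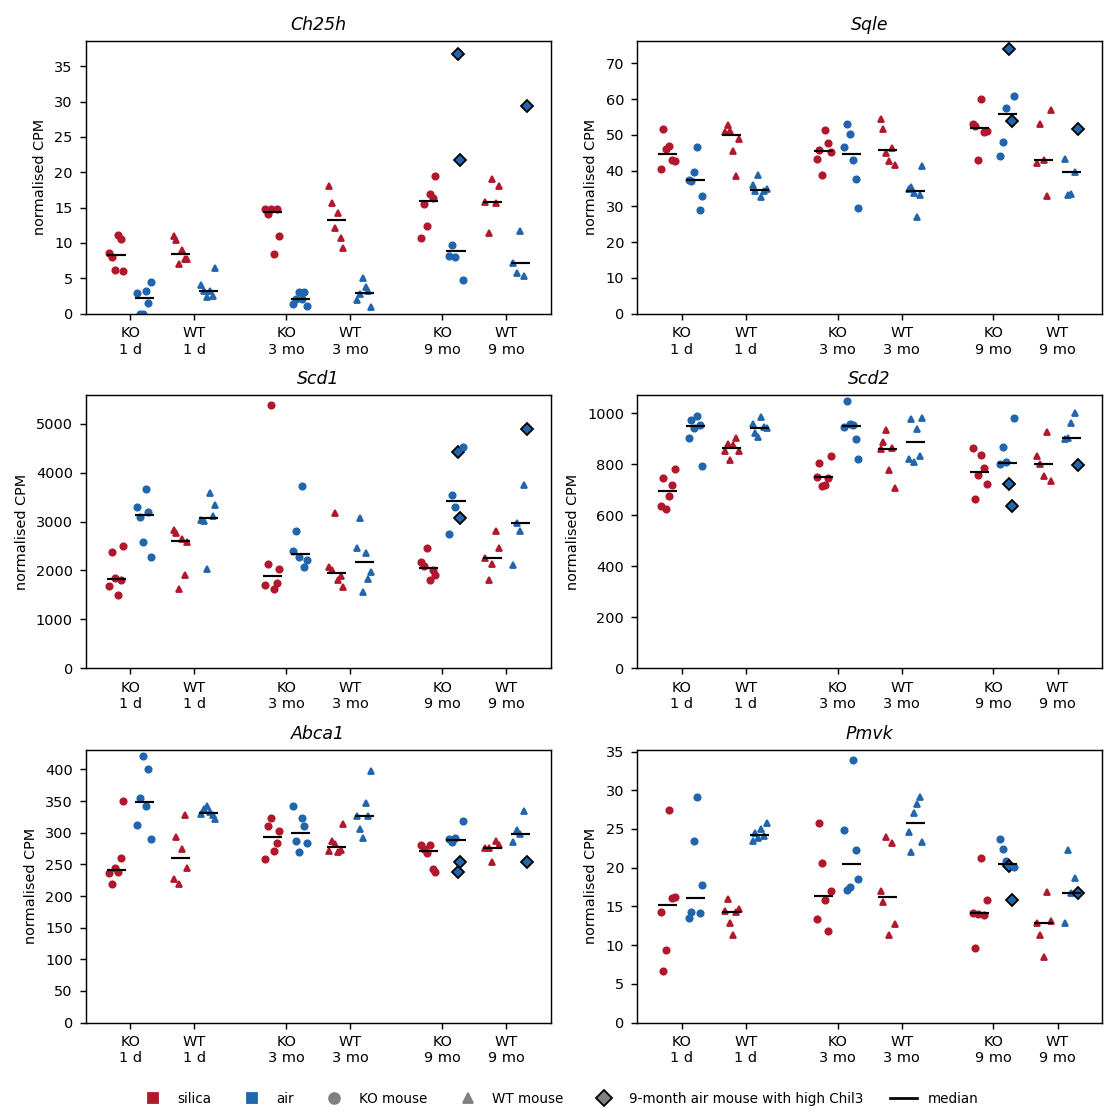
Normalised CPM of Ch25h, Sqle, Scd1, Scd2, Abca1 and Pmvk in each mouse, by genotype and time, with silica mice left of air mice and bars at the medians. Diamonds mark the 3 air mice of 9 months with high Chil3. Ch25h of silica mice lies above that of air mice at 1 day and 3 months, and at 9 months the 3 marked air mice hold its highest values, 21.7 to 36.8 CPM.

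Genotype was compared within each exposure, and no member passed the test at any time. Among silica mice at 1 day 0 of 29 were called (0.00796% of all tested genes), with 8 at an unadjusted p under 0.05 (7.64% of all genes), all of them lower in KO, and 1 call by DESeq2, which called 14 of all genes. That call was Scd2, given above at 623 to 780 CPM in KO silica lungs, against 818 to 904 CPM in WT silica lungs, without overlap. Its log2 fold change of KO over WT was -0.32 (standard error 0.06, adjusted p = 0.0584 by edgeR), and it was called by edgeR as well without KO silica replicate 3. Among air mice at 1 day 0 of 29 were called (0.0478% of all), with 4 at an unadjusted p under 0.05 (10% of all genes) and 0 calls by DESeq2, and Fdps had the smallest p, at -0.43 (standard error 0.13, adjusted p = 0.211).

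At 3 months no member passed the test between KO and WT air mice. In KO air mice 14 of the 16 sterol synthesis genes had higher values than in WT air mice, with a median log2 fold change of 0.27 where that of all genes was 0.00. The genes are not independent here either, since KO air replicate 6 lay below its group's median in 15 of the 16. Hmgcs1 had 116, 147 and 187 CPM in KO air lungs, against 102, 109 and 135 CPM in WT air lungs, with overlap between the groups. Its log2 fold change of 0.43 (standard error 0.10) missed the threshold at an adjusted p of 0.0573. Without KO silica replicate 3, whose group is not compared but shares the estimate of spread, the adjusted p was 0.0195, and without WT air replicate 4 it was 0.114. The antisense gene Gm48342 overlaps exons of Hmgcs1 on the opposite strand, and reads of the pair cannot be told apart. Of the 29 genes 0 were called by edgeR (0.142% of all tested genes), 7 had an unadjusted p under 0.05 (10.8% of all genes), all higher in KO (Hmgcs1, Cyp51 at 0.50, Sqle at 0.34, Lss at 0.33, Msmo1 at 0.27, Fdft1 at 0.26 and Stard4 at 0.20), and DESeq2 called 1, Hmgcs1, among 76 of all genes. Among silica mice of 3 months Hmgcs1 had 125, 136 and 148 CPM in KO lungs, against 119, 132 and 173 CPM in WT lungs. The KO silica mice lay inside the range of the WT silica mice. Of the 29 genes 0 were called there (0.174% of all), with 1 at an unadjusted p under 0.05 (10.3% of all genes), Lss at 0.25 (standard error 0.11, adjusted p = 0.422), and 0 calls by DESeq2. At 9 months 0 of 29 were called among silica mice (0% of all genes), with 3 at an unadjusted p under 0.05 (3.99% of all genes) and 0 calls by DESeq2, and Srebf2 had the smallest p, at 0.30 (standard error 0.10, adjusted p = 1.00). Among air mice of 9 months 0 of 29 were called by edgeR (0.0156% of all), with 5 at an unadjusted p under 0.05 (10% of all genes) and 1 call by DESeq2, again Hmgcs1, among 25 of all genes. It had 117, 159 and 233 CPM in KO air lungs of 9 months, against 107, 108, 109, 117 and 148 CPM in WT air lungs, with the groups overlapping, and its log2 fold change was 0.50 (standard error 0.13, adjusted p = 0.186). The highest of these values, 233 CPM, is that of KO air replicate 4, whose Slc26a4 was high for a KO library. Without that mouse the log2 fold change of Hmgcs1 was 0.38 (standard error 0.11, adjusted p = 0.237). Without WT air replicate 5 it was 0.60 (adjusted p = 0.0502), and without all 3 high-Chil3 mice 0.46 (adjusted p = 0.102).

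Whether silica acted differently in the 2 genotypes was tested as the difference of the effects, KO minus WT. None of the 29 genes passed at any time, and 0% of all tested genes did, so a call in one genotype and not in the other does not show a difference. At 1 day 3 members had an unadjusted p under 0.05 (5.7% of all genes), with Scd2 first at -0.29 (standard error 0.09, adjusted p = 0.751). At 3 months 6 did (7.67% of all genes), all lower in KO: Hmgcs1 at -0.45 (standard error 0.14, adjusted p = 0.445), Idi1 at -0.74, Cyp51 at -0.46, Fdft1 and Sqle at -0.40 each, and Scd2 at -0.21. At 9 months 2 did (7.02% of all genes), with Srebf2 first at 0.38 (standard error 0.14, adjusted p = 0.563). DESeq2 called 0 members in any of these 3 differences. The WT silica effect, the KO against WT difference in air and the difference of effects at 3 months share the WT air mice, whose median sterol sum was the lowest.

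Each time had its own mice, so in comparisons between times the time after exposure, age and any difference in handling cannot be told apart. Between 1 day and 3 months no member passed the test. Among silica mice 0 of 29 did (4.38% of all tested genes), with 5 at an unadjusted p under 0.05 (19.1% of all genes) and 0 calls by DESeq2, and Fasn had the smallest p (log2 fold change of 3 months over 1 day 0.21, standard error 0.08, adjusted p = 0.119). Among air mice 0 of 29 passed (0.113% of all), with 2 at an unadjusted p under 0.05 (8.05% of all genes) and 0 calls by DESeq2, with Nsdhl first at -0.27 (standard error 0.10, adjusted p = 0.415). The silica effect at 3 months minus that at 1 day gave 0 calls by edgeR and by DESeq2 (0.0755% of all genes), with 2 at an unadjusted p under 0.05 (6.5% of all genes), the smallest being that of Abca1 at 0.25 (standard error 0.09, adjusted p = 0.544).

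Between 9 and 3 months more of the 29 genes passed the test in air lungs than in silica lungs, as did more of all genes. Time after exposure, age and handling go together here as well. In silica mice 2 of 29 passed (6.90%, against 11.6% of all tested genes). Abcg1 (chromosome 17 at 31057694 to 31117984, plus strand) had 165, 188 and 205 CPM in KO silica lungs and 179, 197, 201, 205 and 207 CPM in WT silica lungs at 9 months, against 127, 149 and 203 CPM in KO and 134, 154 and 174 CPM in WT silica lungs at 3 months. It rose by 0.32 (standard error 0.07, adjusted p = 0.000867). Elovl6 had 6.74, 7.70 and 10.1 CPM in KO and 7.02, 7.98, 8.10, 8.64 and 11.0 CPM in WT silica lungs at 9 months, against 9.03, 11.6 and 15.2 CPM in KO and 9.01, 10.4 and 13.4 CPM in WT silica lungs at 3 months. It fell by 0.41 (standard error 0.13, adjusted p = 0.0289), and the call was lost without WT silica replicate 1 or 2 of 9 months (adjusted p = 0.0504 and 0.0510). WT silica mice of 9 months lay above those of 3 months for Abcg1, and for Elovl6 the groups of the times overlapped in both genotypes.

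In air mice 10 of 29 genes were higher at 9 than at 3 months and 0 were lower (34.5%, near the 29.2% of all tested genes). Of these 6 were sterol synthesis genes: Mvd at a log2 fold change of 0.46 (standard error 0.16), Cyp51 at 0.44 (0.11), Dhcr7 at 0.44 (0.15), Fdps at 0.43 (0.12), Ebp at 0.33 (0.09) and Sqle at 0.30 (0.09). The others were Ch25h at 2.40 (0.29), Scd1 at 0.53 (0.14), Abcg1 at 0.39 (0.07) and Acly at 0.11 (0.04). Ch25h had 4.72, 7.98, 8.13, 9.68, 21.7 and 36.8 CPM in KO air lungs of 9 months and 5.38, 5.72, 7.11, 11.7 and 29.3 CPM in the WT air lungs, and the highest 3 of these 11 values came from the 3 high-Chil3 mice. Ch25h of the 3-month air mice, given above, ended at 3.08 CPM in KO and 5.00 CPM in WT lungs. Those 3 mice lay above or below all other 8 air mice of 9 months in 7 of the 29 genes, where 11.3% of all genes did so. They were above in Idi1 (15.4 to 17.5 CPM, against 4.20 to 12.8 CPM), Fdps (42.6 to 50.2 CPM, against 23.3 to 35.4 CPM), Cyp51 (46.0 to 62.8 CPM, against 25.2 to 41.4 CPM), Msmo1 (46.5 to 53.4 CPM, against 24.2 to 36.0 CPM) and Ch25h (21.7 to 36.8 CPM, against 4.72 to 11.7 CPM). Scd2 (637 to 798 CPM, against 802 to 1002 CPM) and Abca1 (238 to 254 CPM, against 285 to 335 CPM) were below. Without the 3 mice 4 of 29 were called between 9 and 3 months in air (13.8%, near the 16.4% of all tested genes), Abcg1 at 0.31, Ch25h at 1.61 (standard error 0.24), Ebp at 0.30 and Scd1 at 0.43. Since the 3 mice held the highest 9-month air values of Ch25h, Fdps and Cyp51, leaving them out had to lower those increases. Without WT air replicate 5 alone 6 were called, Abcg1, Ch25h, Cyp51, Ebp, Scd1 and Sqle.

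The silica effect on Ch25h at 9 months turned on the same 3 air mice. With all mice Ch25h had 10.8, 15.9 and 19.4 CPM in KO silica lungs and 11.3, 15.6, 15.8, 18.1 and 19.1 CPM in WT silica lungs, and log2 fold changes over air of 0.04 in KO (standard error 0.38, adjusted p = 0.987) and 0.40 in WT lungs (standard error 0.43, adjusted p = 0.906). Without the 3 mice the changes were 0.98 in KO (standard error 0.22, adjusted p = 0.0143) and 1.06 in WT lungs (standard error 0.24, adjusted p = 0.0109). The 3 mice, chosen for Chil3, held the highest 3 Ch25h values of the air mice of 9 months. Leaving them out therefore had to raise the silica effect, so these tests cannot decide whether silica changed Ch25h at 9 months. The silica effect at 9 months minus that at 3 months was -2.15 with all mice (standard error 0.37, adjusted p = 0.000822), which made Ch25h 1 of 29 members called (3.45%, against 0.732% of all tested genes). Without the 3 mice it was -1.36 (standard error 0.28, adjusted p = 0.0590). Leaving them out had to shrink this difference as well, so the refit cannot test it. The level of Ch25h in silica mice did not pass the test between 9 and 3 months (log2 fold change 0.25, standard error 0.21, adjusted p = 0.533), while that in air mice rose.

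**Figure D5:**
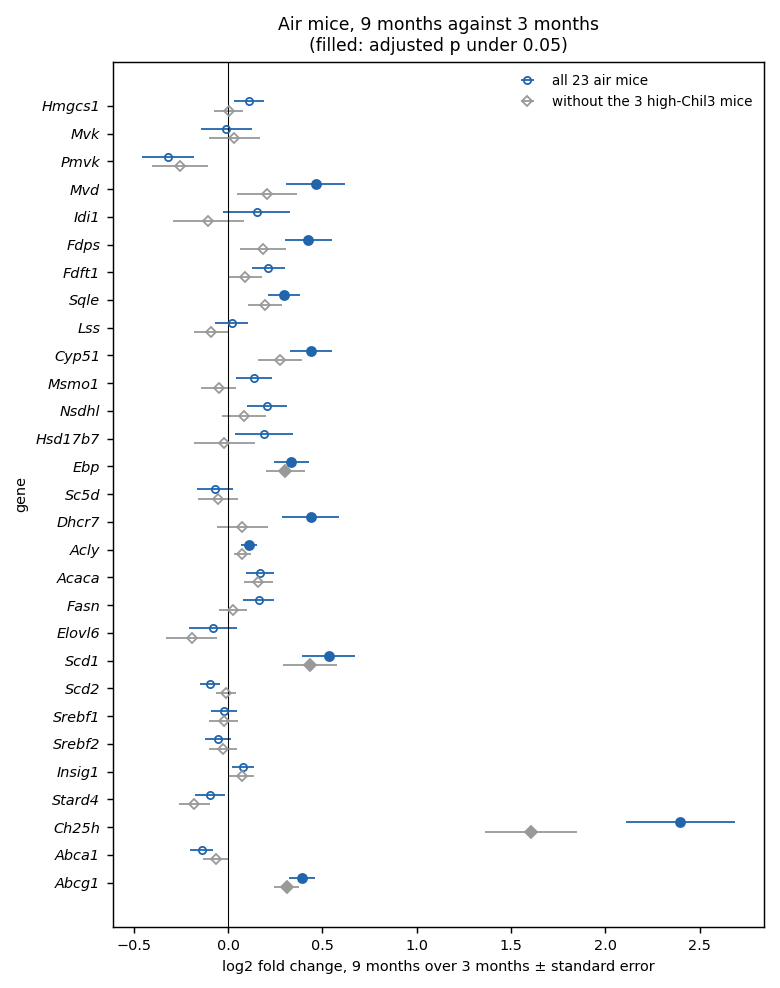
Log2 fold changes of 9 over 3 months in air mice for the 29 genes, with standard errors, from all 23 air mice of these times and without the 3 mice with high Chil3. Ch25h goes to 1.61 without them, against 2.40 with all mice, and the members called go to 4, against 10. The 3 mice held the highest 9-month air values of Ch25h, so its increase had to become smaller.

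Among genes of the same pathways outside the 29, Lipa rose with silica at 1 day and at 3 months. Of 39 such genes in sterol and fatty acid synthesis, SREBP control, the LXR system and sterol storage and transport, 35 could be tested at 1 day and 36 at 3 months. Averaged over genotypes 3 changed with silica at 1 day (8.57%, against 4.59% of all tested genes): Lipa, the lysosomal acid lipase, rose by 0.24 (standard error 0.06), Acsl4, which activates polyunsaturated fatty acids, rose by 0.28 (standard error 0.07), and Acss2, the acetyl-CoA synthetase of the cytosol, fell by 0.28 (standard error 0.08). At 3 months 3 changed (8.33%, near the 7.95% of all tested genes): Lipa rose by 0.28 (standard error 0.07), while the cholesteryl ester hydrolase Nceh1 fell by 0.18 and the lysosomal sterol carrier Npc2 by 0.17 (standard errors 0.05 each). The medians of these genes were -0.03 at 1 day and -0.01 at 3 months.

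Cell markers moved beside these genes. Averaged over genotypes, 4.59% of all tested genes changed with silica at 1 day and 7.95% at 3 months. In the same averages silica raised 6 of 7 tested genes of recruited and lipid-laden macrophages at 1 day (median log2 fold change 0.93). At 3 months it raised 6 of 8 such genes (1.40). Their summed level ran from 1208 to 1671 CPM in KO silica lungs and 1182 to 1484 CPM in WT silica lungs at 1 day, against 1160 to 1520 CPM in KO air lungs and 1129 to 1295 CPM in WT air lungs. Of the alveolar type 2 markers, 2 rose and 1 fell of 8 at 1 day and again at 3 months, and Sftpc did not pass. The type 2 sums at 1 day were 11652 to 13466 CPM in KO silica lungs and 11374 to 13086 CPM in WT silica lungs, against 11380 to 13420 CPM in KO air lungs and 11441 to 12354 CPM in WT air lungs. All 6 cell division genes rose at 1 day (median 1.71), as did 4 of 5 tested neutrophil genes and 4 of 11 resident alveolar macrophage genes, of which 2 others fell. At 3 months 1 of 5 neutrophil genes rose, while 4 of 11 resident macrophage genes rose and 3 fell. Of the 10 fat-cell markers only 3 were abundant enough to test at 1 day, and Cidec, a lipid droplet gene, fell. Between 9 and 3 months 29.2% of all tested genes changed in air mice. There 7 of 8 recruited macrophage genes were higher and 1 was lower (median 1.84). Ctsk, for example, had medians of 46.6 (KO) and 26.9 CPM (WT) in air lungs of 9 months, with highest mice at 293 and 319 CPM. At 3 months those medians were 12.2 and 12.6 CPM. The values of this comparison include the 3 high-Chil3 mice and are not given without them. In the same comparison all 5 tested neutrophil genes were higher (median 1.09), from Csf3r at 0.55 to S100a8 at 1.42, as were 8 of 11 resident alveolar macrophage genes (median 0.85) and 3 of 6 cell division genes (median 0.73). The part of these cell shares in the changes of the 29 genes was not tested.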

How the data were processed

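RNA was measured in 70 lungs, 1 library per mouse. Per the labels' protocols, ribosomal RNA was removed from miRNeasy-extracted, DNase-treated total RNA, and TruSeq Stranded Total RNA libraries were amplified by 12 PCR cycles. The submitters' processing notes name bcl2fastq 2.19, Trimmomatic 0.35, HISAT2 2.1.0, Cufflinks, SAMtools 1.8, HTSeq 0.11.2 and mm10, with no order or role. The annotation and strand setting are not given in the sources used here. The deposited values are whole-number counts per gene, not normalised by the authors. The table held 24439 lines, of which 19 repeated a symbol with identical counts and were dropped, leaving 24420 genes.

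Groups came from the labels' genotype, treatment and time, and the labels give each library as a mouse of its own. Replicate numbers follow accession order. No 2 libraries of the same group agreed within counting noise (lowest chi-square per degree of freedom of a pair 1.47). Pairs of libraries from different groups were not compared. Each time was fitted with its 4 groups by edgeR 4.0.16 (quasi-likelihood test, filterByExpr, TMM), leaving 12558, 12647 and 12826 genes, and comparisons between times used 12 groups and 70 libraries (13252 genes). The threshold was a Benjamini-Hochberg adjusted p-value of 0.05 over all tested genes. Standard errors are approximate: the size of the log2 fold change was divided by the root of its F statistic. CPM values use TMM factors of all 70 libraries. Counting limits, at 3 counts for a count of 0, cover counting error only. Alternatives were DESeq2 1.42.0 (size factors in edgeR, and the Wald test), no filter, all libraries in 1 fit, compared groups only, limma 3.58.1 voom weights, each library left out, and 9 months without the 3 air libraries high in Chil3. The scripts were tested on simulated data. Fits ran in R 4.3.3, tables were made with pandas 2.3.3 and numpy 2.4.6 in Python 3.11.15, and figures with matplotlib 3.10.9. Sequences are from RefSeq (GRCm38.p6).

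The text names every member past the threshold in a comparison, or else the one with the smallest p. It gives values by mouse for members called in a silica comparison within a genotype or in at least 2 comparisons, and for the 3 regulators. Elovl6, called only between 9 and 3 months in silica mice, is given by mouse as well. Hmgcs1, and the members split by the high-Chil3 mice, were given values by mouse after these had been seen. The 29 genes, the other lists and the alternatives were chosen with earlier results of these data known. Some genes of these pathways are not reported here.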

Additional observations from a re-analysis of the deposited data

Results flagged for a closer look

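Single mice stood apart from their group in 14 of 144 combinations of gene and group (9.72%), from 12 of the genes given by mouse. Chance gives about 1 in 20 where values are normally distributed. Some mice stood apart for more than 1 gene, so the combinations are not independent and the shares cannot be set against each other. Elovl6 and Hmgcs1 were not examined in this way. No explanation was tested for any of them.

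For Scd1 there were 3 such mice. KO silica replicate 3 at 3 months had 5394 CPM, against 2135 CPM in the next mouse, and WT silica replicate 3 at 3 months had 3170 CPM, against 2070 CPM in the next. WT air replicate 3 at 1 day was low, at 2037 CPM where the next had 3018 CPM.

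For Srebf1, KO silica replicate 3 at 1 day was low (69.0 CPM, next 112 CPM), KO air replicate 3 at 1 day was low (87.7 CPM, next 129 CPM) and KO silica replicate 4 at 9 months was high (153 CPM, next 124 CPM). For Srebf2, KO silica replicate 3 at 1 day was low (67.4 CPM, next 112 CPM), while KO silica replicate 5 at 9 months (167 CPM, next 131 CPM) and WT air replicate 1 at 9 months (156 CPM, next 121 CPM) were high. Insig1 was low in KO air replicate 3 at 3 months, at 59.1 CPM where the next mouse had 73.1 CPM. The KO silica library of replicate 3 at 1 day is the one that differed most from its group mates over all genes.

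Cyp51 was high in WT silica replicate 5 at 9 months (42.7 CPM, next 34.6 CPM), and Abca1 in KO silica replicate 6 at 1 day (351 CPM, next 260 CPM). WT air replicate 5 at 9 months, one of the high-Chil3 mice, was high in Ch25h (29.3 CPM, next 11.7 CPM) and in Abcg1 (293 CPM, next 199 CPM).

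The silica effect on Ch25h differed between times by a test of the difference itself, at -2.15 on the log2 scale for 9 months minus 3 months. The silica effects were 0.22 at 9 months and 2.37 at 3 months, and the difference did not pass without the 3 high-Chil3 mice. Those 3 mice held the highest Ch25h values of the 9-month air mice. Leaving them out therefore had to shrink the difference, and that refit cannot test it.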

How the results depend on the processing

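No paired analysis was possible because replicate numbers follow accession order and pair no mice. Over the 39 calls of single members, 183 of 198 fits under other settings and 650 of 690 fits with 1 library left out kept the call, and none reversed a direction. In counts of members called, silica in KO lungs at 1 day gave 3 with all 70 libraries in 1 fit and 3 with the compared groups only, where it had been 5, and silica in WT lungs at 1 day gave 5 by voom, where it had been 3. KO against WT gave 1 by DESeq2, where it had been 0, in silica mice at 1 day, in air mice at 3 months and in air mice at 9 months, and 1 in air mice at 3 months without the low-count filter. At 9 months the counts without the 3 high-Chil3 air libraries were 2 in KO lungs (1 with all), 1 in WT lungs (0 with all) and 4 averaged over genotypes (1 with all, 3 by voom). Over all genes the calls there were 218 in KO lungs (23 with all), 211 in WT lungs (3 with all) and 497 averaged (31 with all), so the shares of members, 6.90%, 3.45% and 13.8%, stand beside 1.7%, 1.64% and 3.87% of all genes. The 4 were Ch25h at 1.02 (adjusted p = 8.77e-05), Scd1 at -0.56, Pmvk at -0.53 (adjusted p = 0.0209) and Msmo1 at 0.31 (adjusted p = 0.0482). For Ch25h and Msmo1 the 3 mice left out held the highest air values, so both silica effects had to rise. Between 9 and 3 months DESeq2 called 1 in silica mice, where it had been 2. Without the 3 libraries 4 were called in air mice (10 with all) and 0 for the difference of silica effects (1 with all). For Ch25h the refit had to shrink both the increase in air mice and the difference. The causes of these moves were not tested. With each library left out in turn the silica counts ranged from 4 to 5 (KO, 1 day), 2 to 4 (WT, 1 day), 6 to 8 (averaged, 1 day), 1 to 5 (WT, 3 months), 3 to 5 (averaged, 3 months) and 0 to 1 (KO, 9 months). Those of KO against WT ranged from 0 to 1 in silica mice at 1 day and in air mice at 3 months. Those of 9 against 3 months ranged from 1 to 2 in silica mice and 6 to 12 in air mice, where WT libraries of 9 months were left out.

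Depth limits Ch25h, Elovl6 and Mvd most, whose median counts per library were 16, 22 and 20. The normalised values are shares of each library, in which Lars2 alone took 8.33% of all counts. Reads of Hmgcs1, Idi1, Fdft1, Lss, Cyp51, Elovl6, Srebf1 and Ch25h cannot be told apart from those of genes whose exons overlap theirs on the opposite strand, nor those of Fdps from Gm43738 on the same strand.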

Other observations

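Among the 39 other genes of these pathways, 9 of 37 passed between 9 and 3 months in silica mice, 6 higher and 3 lower (24.3%, against 11.6% of all tested genes), and 11 of 37 in air mice, 8 higher and 3 lower (29.7%, near the 29.2% of all tested genes). Sterol storage and lysosomal genes were among those higher at 9 months in both exposures, where time after exposure, age and handling cannot be told apart. Lipa rose by 0.40 on the log2 scale in silica mice and by 0.67 in air mice, Nceh1 by 0.44 in silica and 0.33 in air mice, Npc2 by 0.21 in silica and 0.37 in air mice, and Soat1, which esterifies cholesterol, by 0.24 in silica and 0.25 in air mice. Lipa medians in air lungs of 9 months were 122 (KO) and 99.0 CPM (WT), with highest mice at 255 and 308 CPM. At 3 months those medians were 90.5 and 86.1 CPM. The air values of this paragraph include the 3 high-Chil3 mice and are not given without them. Mbtps1, the protease that first cleaves SREBP, fell by 0.17 in silica mice and by 0.16 in air mice. In silica mice Nr1h3, the gene of LXR alpha, fell by 0.32. In the same comparisons 8 of 11 tested resident alveolar macrophage markers were higher at 9 months in silica mice and 8 of 11 in air mice, and the part of macrophage numbers in these changes was not tested.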
